A study of Homo sapiens with 4 samples.

Results

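Integrins are transmembrane receptors made of 1 alpha and 1 beta subunit that bind matrix proteins outside the cell and, through talins and kindlins, the actin cytoskeleton inside it. The 45 genes described here encode integrin subunits, syndecans, adhesion-plaque proteins and caveolae proteins, and were chosen by name from the lists of these families. Each was required to average at least 1 CPM (counts scaled to library size) over the 4 libraries, and 39 of the 45 did so, among 12032 such genes of the 20286 in the files. The 39 comprised 7 alpha subunits, 5 beta subunits, 4 syndecans, 13 plaque linkers, 7 plaque signalling proteins and 3 caveolae genes.

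HLE, the source of the RNA, is an established cell line from a human hepatocellular carcinoma, here grown without further treatment in medium with 10% fetal bovine serum. One group, here called CYR61, carried stable CYR61 expression (2 libraries), and the other, here called vector, carried the vector alone (2 libraries). The series' design text describes the replicates as separate cultures of the whole population of each stable line, so p-values measure the spread between cultures and not between separately made lines. CYR61 is a secreted, matrix-associated protein whose current gene symbol is CCN1.

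CYR61 has no enzyme activity of its own and is known to signal through integrins, chiefly pairs that contain ITGAV (with ITGB3 or ITGB5) and the pair of ITGA6 with ITGB1, with heparan sulfate proteoglycans such as SDC4 as co-receptors. Ligand-bound integrins cluster into adhesion plaques, where talin (TLN1), vinculin (VCL) and the complex of ILK, LIMS1 and parvins link them to actin, and where the kinases PTK2 (FAK) and SRC phosphorylate paxillin (PXN) and BCAR1. The comparison asks how the RNA of these receptors and of the plaque differed when their ligand was made in excess.

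The libraries held 21388465 and 16186988 estimated counts in the CYR61 group and 19118548 and 21588822 in the vector group. CCN1 itself, the check of the labels, was at 8091 and 8620 CPM in the CYR61 libraries, against 222 and 218 CPM in the vector libraries. Of 10 hepatocyte markers, ALB, APOB and TTR had 0 counts in the 4 libraries and 2 averaged at least 1 CPM, with a summed level of 15.2 to 15.4 CPM in CYR61 and 17.5 to 18.7 CPM in vector libraries. The 5 epithelial markers, chiefly the keratin genes KRT8 and KRT18, summed to 4201 to 4663 CPM in CYR61 and 3239 to 3763 CPM in vector libraries, and the 4 mesenchymal markers, chiefly VIM, to 1616 to 1879 and 1869 to 2122 CPM. The mesenchymal ranges overlapped, as did VIM between groups (log2 fold change -0.17, edgeR adjusted p = 0.465). CDH2, which was not called, lay higher in both CYR61 libraries than in both vector libraries. FN1, called lower, and ZEB1, not called, lay lower. The epithelial genes CDH1, KRT8 and KRT18 were not called and lay higher in both CYR61 libraries. EPCAM overlapped between groups and was not called, and KRT19 was not tested. In the fit with the GC trend removed, described below, CDH1, KRT8 and KRT18 were called higher and ZEB1 lower. That fit called 27.9% of all genes. The part of these marker differences in the results below was not tested. Of 5 leukocyte markers 1, CD68, reached 1 CPM, and the list summed to 48.4 to 53.6 CPM in CYR61 and 63.5 to 67.8 CPM in vector libraries. Of 4 endothelial markers 1, VWF, reached 1 CPM, and the list summed to at most 2.63 CPM in any library. Of 7 fibroblast or stellate markers 3 did so, and that list summed to 38.9 to 39.1 CPM in CYR61 and 39.2 to 47.8 CPM in vector libraries. The matrix proteoglycan gene DCN, of this list, went against that sum, at 3.67 and 2.25 CPM in CYR61 libraries and 0.637 and 0.544 CPM in vector libraries (log2 fold change 2.34, edgeR adjusted p = 0.00746). LUM did so too at few counts, with 13 and 2 in CYR61 libraries and 0 and 0 in vector libraries, and was not tested.

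Part of the spread within each group followed the GC content of the genes. Over 10364 genes, Spearman's rho with GC content was -0.78 for CYR61 1 minus CYR61 2 and 0.73 for vector 1 minus vector 2, as a description across genes that share libraries. The trends of the groups thus ran in opposite directions by replicate number, and rho was -0.16 for CYR61 minus vector. Each result below therefore comes from a fit on group alone, and where a fit with the GC trend removed from every library gave another call for a member, or another count for a list, that value stands beside it.

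Of the 39 genes, 6 fell and 1 rose in CYR61-expressing cells. The fallen genes were the integrin subunits ITGA2, ITGA3, ITGA5, ITGB2 and ITGB4 and the tensin TNS4, and the risen gene was the caveolin CAV1. These calls are edgeR quasi-likelihood tests on 12698 genes with a Benjamini-Hochberg adjusted p below 0.05, and p-values were adjusted over all of them. All 7 calls stand beside 6.39% of all genes tested that were called in either direction. The 6 lower genes were 15.4% of the members, beside a background of 4.56% of all genes tested, and the 1 higher gene was 2.56%, beside 1.83%. Since the members were chosen with earlier results of these data known, these shares are a description and not a test. The median log2 fold change (CYR61 minus vector) was -0.14 over the 39 genes and -0.01 over all genes tested. With the GC trend removed, 12 members were lower (30.8%, against 13.2% of all genes) and 6 higher (15.4%, against 14.7%), with 27.9% of all genes called. DESeq2 called 8 members lower and 1 higher. Over all genes it called 945, did not call 11014 and gave the rest no adjusted p. Of all 12698 genes the calls were 7.44%, 4.64% lower and 2.80% higher. Shares of the genes with an adjusted p would be somewhat higher. Leaving out vector 1 left 4 members called lower, leaving out vector 2 or CYR61 1 left 5, and leaving out CYR61 2 left 6. In each of these 4 edgeR fits 0 members were called higher. RNA from whole cultures cannot tell a lower level in every cell from fewer cells that express a gene.

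By role, of the 7 alpha subunits 3 fell and 0 rose (median log2 fold change -0.29), and of the 5 beta subunits 2 fell and 0 rose (median -0.41). Of the 13 plaque linkers 1 fell and 0 rose (median -0.01), and of the 7 plaque signalling genes 0 were called (median -0.07, edgeR), with 1 at an unadjusted p below 0.05 and 0 by DESeq2. Of the 4 syndecans 0 were called (median -0.02, edgeR), with 1 lower and 1 higher at an unadjusted p below 0.05 and 0 by DESeq2. Of the 3 caveolae genes 1 rose (median 0.26). With the GC trend removed, 4 alpha and 4 beta subunits, 3 linkers and 1 syndecan were lower, and 2 linkers, 2 signalling genes, 1 syndecan and 1 caveolae gene were higher. These differences between roles were not tested. By CPM alone, 20 of the 39 genes lay lower and 6 higher in both CYR61 libraries than in both vector libraries. The same held for 27.7% (lower) and 23.9% (higher) of all genes tested.

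**Figure D1:**
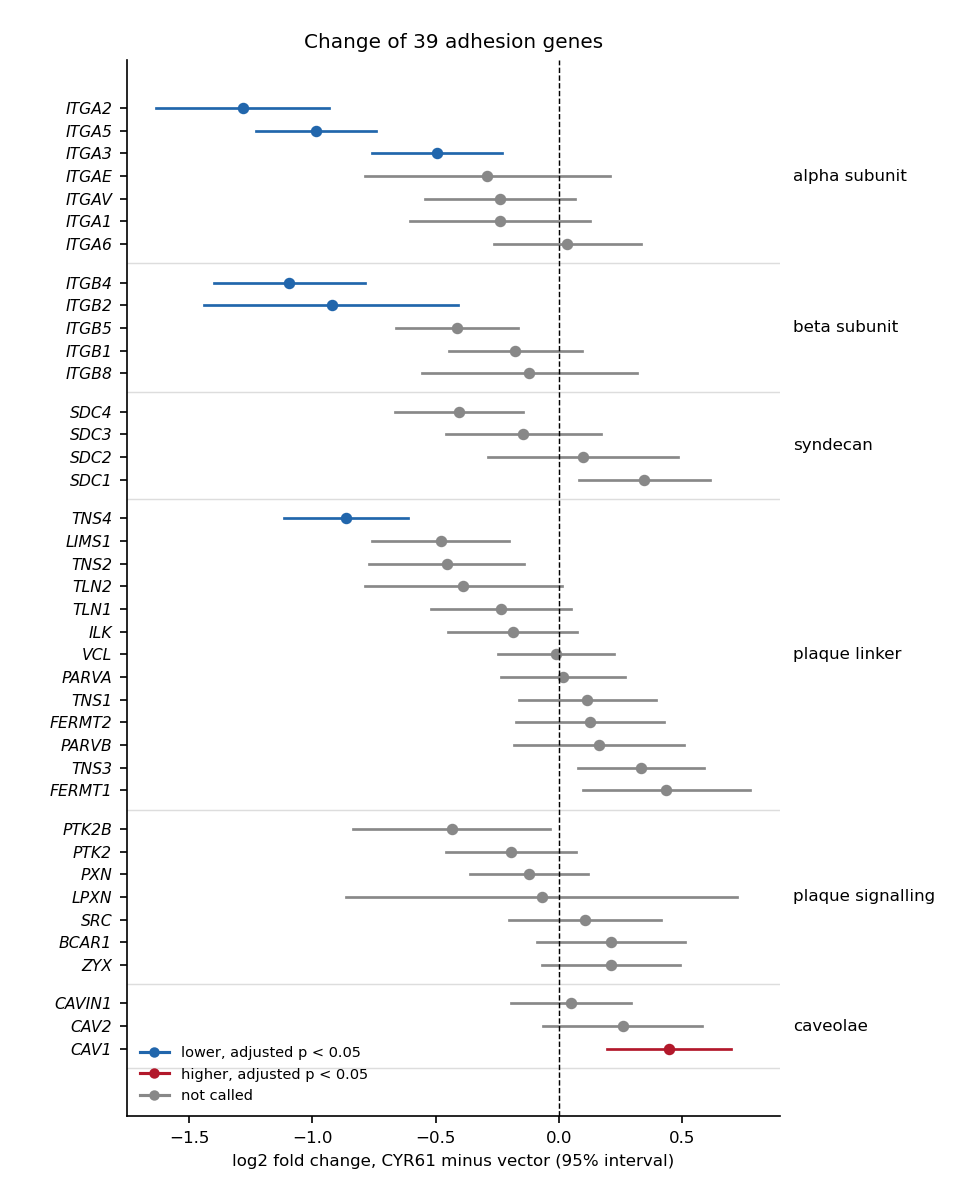
Log2 fold changes of the 39 genes, CYR61 minus vector, with 95% intervals from the edgeR fit, sorted within each role. Blue points are the 6 lower and the red point the 1 higher gene at an adjusted p below 0.05. The 5 beta subunits lie below 0 in this fit, and the 3 caveolae genes lie above it, although ITGB8 (without vector 2) and CAVIN1 (without CYR61 2) change sign when 1 library is left out.

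Promoter sequences are shown for the called members that the RefSeq promoter table held (GRCh38.p14, 250 bases before to 50 after the start). The table matched 32 of the 45 members, and of the 7 called genes it held ITGA2, ITGA5 and CAV1. Capitals mark matches, on either strand, to TGANTCA (AP-1), GGAATG (TEAD), CACGTG (E-box), ACGTG (hypoxia element core, which an E-box also contains) and GGGCGG (SP/KLF GC box). Of the 35116 promoter windows in the table, 7.71% held the AP-1 letters, 14.0% the TEAD letters, 7.26% the E-box, 21.4% the hypoxia core. The GC box was in 15786 of the windows. The windows are chr12:54419217-54419516 on the minus strand for ITGA5, chr5:52989102-52989401 on the plus strand for ITGA2 and, for the first of 3 listed starts of CAV1, chr7:116524759-116525058 on the plus strand.
ITGA5: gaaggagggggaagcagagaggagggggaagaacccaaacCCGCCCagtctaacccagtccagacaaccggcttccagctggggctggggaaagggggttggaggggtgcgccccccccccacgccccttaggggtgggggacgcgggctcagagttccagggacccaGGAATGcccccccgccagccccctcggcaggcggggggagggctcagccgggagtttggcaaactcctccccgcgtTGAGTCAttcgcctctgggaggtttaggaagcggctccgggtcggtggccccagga
ITGA2: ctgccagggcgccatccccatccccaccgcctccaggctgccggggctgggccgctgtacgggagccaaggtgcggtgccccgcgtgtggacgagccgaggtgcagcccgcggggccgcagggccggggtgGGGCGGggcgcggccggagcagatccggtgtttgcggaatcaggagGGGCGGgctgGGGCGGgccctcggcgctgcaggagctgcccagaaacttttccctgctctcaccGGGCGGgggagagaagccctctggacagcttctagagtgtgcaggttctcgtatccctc
CAV1: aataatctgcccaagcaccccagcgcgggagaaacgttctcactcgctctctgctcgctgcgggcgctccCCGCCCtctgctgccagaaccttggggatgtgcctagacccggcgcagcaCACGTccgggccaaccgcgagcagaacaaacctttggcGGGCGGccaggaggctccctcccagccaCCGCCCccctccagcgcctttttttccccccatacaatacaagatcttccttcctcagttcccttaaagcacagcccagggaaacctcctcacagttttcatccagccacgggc
The ITGA5 window held 1 AP-1 match at bases 245 to 251 of the window, across the RefSeq start. It also held 1 TEAD match at bases 169 to 174 and 1 GC box. Gene coordinates given below are from GENCODE release 29, whose starts for these genes differ from the RefSeq starts. The ITGA2 window held 4 GC boxes and 0 matches to the other letters, and the CAV1 window shown held 3 GC boxes and 1 hypoxia core. The CAV1 window that begins at 116526112, not printed, held 2 GC boxes and 0 hypoxia cores. A match describes letters in the window and not binding.

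Among the alpha subunits, the collagen receptor chain ITGA2, which pairs with ITGB1, showed the largest change. ITGA2 (ENSG00000164171, hg38 chromosome 5, 52989326 to 53094779, plus strand) was at 28.9 and 24.8 CPM in the CYR61 libraries, against 57.8 and 73.1 CPM in the vector libraries. The groups did not overlap, and the gap between them was wider than the gap between the vector libraries. Its log2 fold change was -1.28 (standard error 0.16, adjusted p = 0.0016 by edgeR), or 2.43-fold lower in CYR61 cells.

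ITGA5, the alpha chain of the classical fibronectin receptor, also fell. ITGA5 (ENSG00000161638, chromosome 12, 54395261 to 54419460, minus strand) was at 174 and 181 CPM in CYR61 libraries, against 364 and 340.2 CPM in vector libraries. The replicates of each group lay close together and far from the other group, with a log2 fold change of -0.99 (standard error 0.11, adjusted p = 0.000877 by edgeR) or 1.98-fold lower in CYR61 cells. The gene of its ligand fibronectin, FN1, was at 28.7 and 28.4 CPM in CYR61 libraries and at 82.3 and 76.5 CPM in vector libraries (log2 fold change -1.48, edgeR adjusted p = 0.000191).

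ITGA3, a laminin receptor chain, changed less. ITGA3 (ENSG00000005884, chromosome 17, 50055968 to 50090481, plus strand) was at 237 and 275 CPM in CYR61 libraries, against 374 and 346 CPM in vector libraries. Both CYR61 libraries were below both vector libraries, and the log2 fold change was -0.49 (standard error 0.12, adjusted p = 0.0367 by edgeR). This call was lost without vector 1 (edgeR adjusted p = 0.207), without vector 2 (0.0749), without CYR61 1 (0.256) and with RLE size factors (0.0546), while with the GC trend removed it was held (0.00104).

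ITGA6 and ITGAV, the alpha chains of the chief CYR61 receptor pairs named above, were not called. ITGA6, which also forms laminin receptors with ITGB1 or ITGB4, was at 129 and 109 CPM in CYR61 libraries and 106 and 126 CPM in vector libraries. The groups overlapped, and the log2 fold change was 0.03 (95% interval -0.26 to 0.33, edgeR adjusted p = 0.914), with a sign that turned without vector 1 or without CYR61 1. ITGAV was at 51.6 and 48.7 CPM in CYR61 libraries and 53.7 and 64.5 CPM in vector libraries, with a log2 fold change of -0.24 (95% interval -0.54 to 0.07, edgeR adjusted p = 0.334). The CYR61 libraries lay below the vector libraries for ITGAV by a margin smaller than the gap between the vector libraries, and with the GC trend removed it was lower (log2 fold change -0.28, edgeR adjusted p = 0.042).

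The other alpha subunits were of low abundance. ITGA1, a collagen receptor chain, was at 26.7 and 26.2 CPM in CYR61 libraries and 27.0 and 35.3 CPM in vector libraries (log2 fold change -0.24). Its value is uncertain, since 475 bases of its exons are shared with PELO on the same strand. ITGAE, which pairs with ITGB7 on lymphocytes, had 4.05 and 4.01 CPM in CYR61 libraries and 5.20 and 4.67 CPM in vector libraries (log2 fold change -0.29). Neither was called, and 427 bases of the ITGAE exons overlap HASPIN on the opposite strand, whose reads cannot be told apart without strand information.

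Of the beta subunits, ITGB4 showed the largest change. It pairs with ITGA6 to form the laminin receptor of hemidesmosomes, which anchors to keratin filaments. ITGB4 (ENSG00000132470, chromosome 17, 75721328 to 75757818, plus strand) was at 175 and 224 CPM in CYR61 libraries, against 450.0 and 402 CPM in vector libraries. Its log2 fold change was -1.09 (standard error 0.14, adjusted p = 0.0016 by edgeR), or 2.13-fold lower in CYR61 cells. The ratio of the levels per length of ITGA6 to ITGB4 was 0.76 and 0.504 in CYR61 libraries and 0.245 and 0.325 in vector libraries. The ratio was thus higher in both CYR61 libraries, and the difference between the changes of the 2 genes was not tested.

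ITGB2, the beta chain of leukocyte integrins, was at 5.72 and 7.64 CPM in CYR61 libraries, against 14.9 and 10.4 CPM in vector libraries. The gap between the vector libraries was wider than that between the groups' nearest values, and the log2 fold change was -0.92 (standard error 0.23, adjusted p = 0.0442 by edgeR). The call was lost without vector 1 (edgeR adjusted p = 0.243), without CYR61 1 (0.091) and with library size alone (0.0611). The leukocyte marker PTPRC was at 0 in the CYR61 libraries and at most at 0.0453 CPM in the vector libraries, and CD3E was at 0 throughout.

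ITGB1 and ITGB5, beta chains of the chief CYR61 receptor pairs named above, differed less. ITGB1, the shared partner of most alpha chains, was at 631 and 541 CPM in CYR61 libraries and 621 and 704 CPM in vector libraries. The groups overlapped (log2 fold change -0.18, 95% interval -0.45 to 0.09, edgeR adjusted p = 0.423), and with the GC trend removed ITGB1 was lower (log2 fold change -0.22, edgeR adjusted p = 0.0206). ITGB5, the partner of ITGAV in vitronectin binding, was at 270.5 and 297 CPM in CYR61 libraries, against 390.3 and 365 CPM in vector libraries. Both CYR61 libraries of ITGB5 were below both vector libraries, and its log2 fold change of -0.41 (SE 0.11) missed the threshold (edgeR adjusted p = 0.0555). ITGB5 was called lower with the GC trend removed (edgeR adjusted p = 0.00166), with DESeq2 (adjusted p = 0.0397) and with library size alone (edgeR adjusted p = 0.0423). Of 14 alternative fits 7 called it and 7 did not, the latter including RLE size factors and the replicate block. Among the 7 that called ITGB5 was a crossed replicate block, a pairing chosen after seeing the data. With 1 library left out its log2 fold change ranged from -0.48 to -0.34. ITGB8, which pairs with ITGAV, was at 7.35 and 7.64 CPM in CYR61 libraries and 7.27 and 8.97 CPM in vector libraries and was not called.

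ITGB3, the partner of ITGAV in the best-known CYR61 receptor, was near the detection limit in both groups. It had 5 and 4 counts in CYR61 libraries and 5 and 5 counts in vector libraries. Summed over each group this is 0.24 CPM (exact Poisson 95% interval 0.11 to 0.456) in CYR61 and 0.244 CPM (0.117 to 0.449) in vector, intervals that cover counting error only. The identifier that shares 2266 bases of exon with ITGB3, ENSG00000259753, had 0 counts in the 4 libraries. A level per length of 0.0529 and 0.057 CPM per kb for ITGB3 in the CYR61 libraries stood beside 42.0 and 46.0 for ITGB5 in the same libraries.

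The other 5 genes below 1 CPM were also integrin subunits. ITGA4 had 0 counts in the 4 libraries, which allows up to 0.0801 CPM in the CYR61 group and 0.0733 CPM in the vector group (3 counts over the group). ITGB6 had 0 counts in both CYR61 libraries and 0 and 2 in vector libraries, ITGA10 had 1 and 2 against 0 and 3, and ITGA11 had 1 and 0 against 1 and 0. ITGA7, a laminin receptor chain of muscle, had 16 and 12 counts in CYR61 libraries and 7 and 5 in vector libraries. It was the only one of these with enough counts for the filter of the test, and it was not called (log2 fold change 1.33, standard error 0.55, adjusted p = 0.184 by edgeR).

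Compared per length of exon, the order of the integrin chains differed between the groups. In CYR61 libraries ITGA3 was the most abundant alpha chain (26.1 ± 2.78 CPM per kb, mean ± SD, n = 2), ahead of ITGA5 (23.5 ± 0.642) and ITGA6 (18.2 ± 2.12). The lowest ITGA3 library there was only just above the higher ITGA5 library, at 24.1 against 23.9 CPM per kb. In vector libraries ITGA5 came first (46.5 ± 2.23 CPM per kb, n = 2), then ITGA3 (36.7 ± 2.06) and ITGA6 (17.8 ± 2.16), with no overlap between neighbours. The order of ITGA3 and ITGA5 depends on the length used. Over the 4 libraries they averaged 31.4 and 35.0 CPM per kb of exon, but 56.2 and 53.0 with the longest transcript as length. Next by length of exon came ITGAV and ITGA2. In CYR61 libraries ITGAV was at 6.11 ± 0.251 CPM per kb and ITGA2 at 3.39 ± 0.365, whereas in vector libraries ITGA2 (8.27 ± 1.37) and ITGAV (7.20 ± 0.933) overlapped. Of the summed level of ITGA1, ITGA2, ITGA3, ITGA5, ITGA6 and ITGAV, ITGA5 made up 29.4% and 30.2% in CYR61 libraries, against 40.8% and 37.9% in vector libraries. ITGA6 made up 25.2% and 21.1% in CYR61 libraries, against 13.8% and 16.3% in vector libraries.

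The sum over the 7 alpha chains was 78.8 and 79.8 CPM per kb in CYR61 libraries, against 118.6 and 119.2 in vector libraries. The sum over the 5 beta chains was 174 and 171 CPM per kb in CYR61 libraries, against 233 and 235 in vector libraries. Both sums were lower in CYR61 cells by more than the gap between replicates, with no test. Among the beta chains ITGB1 came first in both groups, at 97.4 ± 10.6 CPM per kb in CYR61 and 110.1 ± 9.73 in vector libraries. ITGB5 (44.0 ± 2.89) came ahead of ITGB4 (29.6 ± 5.12) in CYR61 libraries without overlap, while in vector libraries ITGB4 (63.0 ± 4.97) and ITGB5 (58.6 ± 2.77) overlapped. The relation of ITGB5 to ITGB4 depends on the length used. Over the 4 libraries they averaged 51.3 and 46.3 CPM per kb of exon, and 75.6 and 52.9 with the longest transcript as length.

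**Figure D2:**
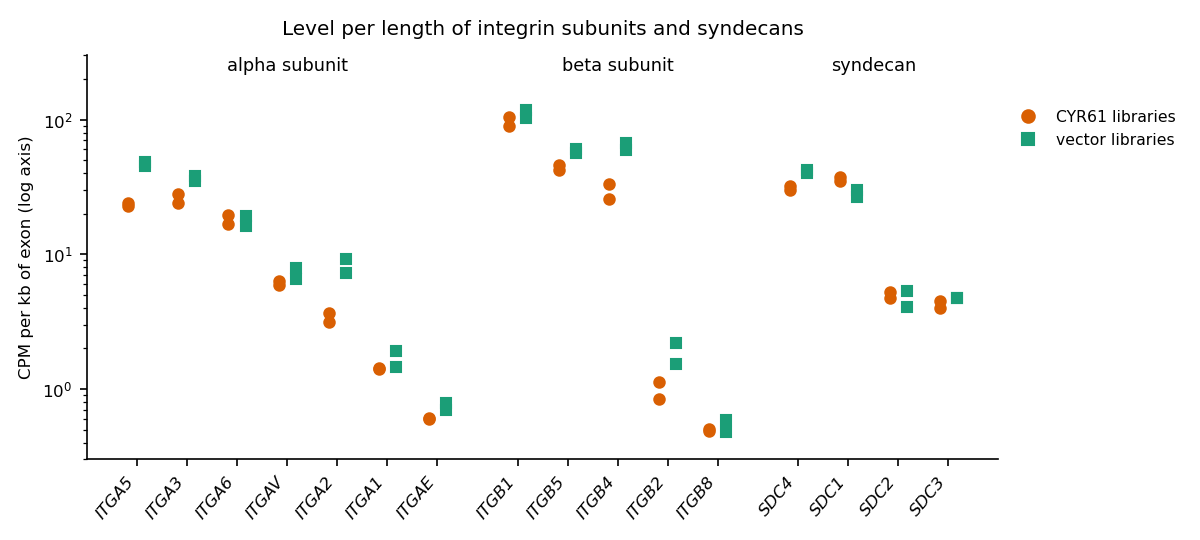
Level per length (CPM per kb of exon, log axis) of the kept integrin subunits and syndecans in each CYR61 library (circles) and each vector library (squares). ITGA5, ITGA2 and ITGB4 sit lower in both CYR61 libraries, while the symbols of ITGA6, ITGB1 and SDC2 overlap between groups.

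The 4 syndecans, transmembrane heparan sulfate proteoglycans that bind matrix and act with integrins, were not called by edgeR in the fit on group alone. SDC4, the plaque-associated syndecan, was at 84.1 and 78.5 CPM in CYR61 libraries, against 109.9 and 105.5 CPM in vector libraries. The groups did not overlap, and the log2 fold change was -0.41 (standard error 0.12, adjusted p = 0.0676 by edgeR), with a call with the GC trend removed (0.00254). SDC1, the main syndecan of epithelia, was at 125 and 135 CPM in CYR61 libraries, against 109 and 96.1 CPM in vector libraries. Its direction was opposite to that of SDC4 (log2 fold change 0.35, standard error 0.12, adjusted p = 0.116 by edgeR), and it was higher with the GC trend removed (log2 fold change 0.44, edgeR adjusted p = 0.000917).

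SDC2 was at 24.0 and 21.6 CPM in CYR61 libraries and 18.5 and 24.1 CPM in vector libraries, and SDC3 at 28.4 and 31.9 against 33.3 and 33.2 CPM. The values of SDC2 overlapped and those of SDC3 did not, and the 95% intervals of the log2 fold change were -0.29 to 0.48 for SDC2 and -0.46 to 0.17 for SDC3. Per length, SDC1 (36.2 ± 1.88 CPM per kb, n = 2) was ahead of SDC4 (31.1 ± 1.52) in CYR61 libraries, while in vector libraries SDC4 (41.2 ± 1.17) was ahead of SDC1 (28.5 ± 2.47). SDC2 and SDC3 lay between 4.02 and 5.32 CPM per kb in every library.

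Of the 13 linkers and 7 signalling members of the plaque, TNS4 was the 1 called in the fit on group alone. It encodes a short tensin that binds beta integrin tails and lacks the actin-binding region of the other tensins. TNS4 (ENSG00000131746, chromosome 17, 40475828 to 40501597, minus strand) was at 86.9 and 93.6 CPM in CYR61 libraries, against 164 and 165 CPM in vector libraries. The 2 vector libraries were nearly equal and both CYR61 libraries were far below, with a log2 fold change of -0.86 (standard error 0.11, adjusted p = 0.00194 by edgeR) or 1.82-fold lower in CYR61 cells. TNS4 shared 8 stretches of 50 bases, searched every 10 bases, with transcripts of MDM4.

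The long tensins, which do bind actin, did not share one direction. TNS3 was at 172 and 190.3 CPM in CYR61 libraries, against 149 and 139 CPM in vector libraries (log2 fold change 0.33, edgeR adjusted p = 0.114, and 0.00105 with the GC trend removed). TNS2 was at 24.2 and 26.8 CPM in CYR61 libraries, against 34.8 and 35.0 CPM in vector libraries (log2 fold change -0.46, edgeR adjusted p = 0.0884, and 0.0232 with the GC trend removed). The groups did not overlap for TNS3 or TNS2. TNS1 overlapped between groups, with a log2 fold change of 0.12 (95% interval -0.16 to 0.39), whose sign turned without CYR61 2.

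VCL, the actin linker of mature plaques and the plaque gene of highest level per length, was at 603 and 634 CPM in CYR61 libraries and 610 and 638 CPM in vector libraries. The groups overlapped, and the log2 fold change was -0.01 (95% interval -0.25 to 0.22), with a sign that turned to above 0 under RLE size factors, DESeq2 and without vector 2 or CYR61 1. VCL shares 1109 bases of exon with AP3M1 on the opposite strand. TLN1, the main talin, and the integrin-linked pseudokinase gene ILK were not called (log2 fold changes -0.24 and -0.19), and TLN2 was at -0.39. ILK shares 2374 bases of exon with TAF10 on the opposite strand, so its value is uncertain, and TLN1 and TNS2 overlap opposite-strand genes over 61 bases (CREB3) and 57 bases (SPRYD3).

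LIMS1 (PINCH1), the partner of ILK, was at 88.8 and 78.8 CPM in CYR61 libraries, against 109.5 and 124 CPM in vector libraries. The groups did not overlap, and the log2 fold change was -0.48 (standard error 0.13, adjusted p = 0.0508 by edgeR). It was called lower with DESeq2 (adjusted p = 0.0249) and with the GC trend removed (edgeR adjusted p = 0.000391). Of 14 alternative fits 7 called LIMS1 and 7 did not, the latter including RLE size factors, library size alone and the replicate block. Among the 7 that called LIMS1 was the crossed replicate block, chosen after seeing the data. With 1 library left out its log2 fold change ranged from -0.57 to -0.38. LIMS1 has near-identical copies, LIMS3 and LIMS4, which were assigned at most 12 and 2.15 counts in any library. The parvins PARVA and PARVB, which link ILK to actin, had log2 fold changes of 0.02 and 0.16 and overlapped between groups. The sign of PARVA turned with the GC trend removed and without vector 1, and that of PARVB without CYR61 2.

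The kindlins activate integrins together with talin. FERMT1 (kindlin-1), the epithelial form, was at 27.3 and 24.2 CPM in CYR61 libraries, against 19.3 and 18.8 CPM in vector libraries. The groups did not overlap, and the log2 fold change was 0.44 (standard error 0.15, adjusted p = 0.119 by edgeR, and 0.00941 with the GC trend removed). FERMT2 (kindlin-2) was at 114 and 91.8 CPM in CYR61 libraries and 89.6 and 98.9 CPM in vector libraries, with overlap and a log2 fold change of 0.13, whose sign turned without CYR61 1.

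Among the plaque signalling genes, ZYX and BCAR1 were called higher with the GC trend removed and not in the fit on group alone. ZYX (zyxin), which gathers at plaques under tension, was at 186 and 212 CPM in CYR61 libraries, against 186 and 158 CPM in vector libraries (log2 fold change 0.21, edgeR adjusted p = 0.35, and 0.00313 with the GC trend removed). The nearest ZYX values of the groups were almost equal, at 186.4 CPM in CYR61 1 and 185.6 CPM in vector 1. BCAR1 (p130Cas), a scaffold phosphorylated by SRC, was at 90.0 and 108 CPM in CYR61 libraries and 91.6 and 79.5 CPM in vector libraries (log2 fold change 0.21, edgeR adjusted p = 0.389, and 0.00552 with the GC trend removed).

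The focal adhesion kinases were not called in either fit. PTK2 (FAK) was at 69.1 and 71.1 CPM in CYR61 libraries, against 77.8 and 82.5 CPM in vector libraries (log2 fold change -0.19, edgeR adjusted p = 0.365). Its relative PTK2B had a log2 fold change of -0.43 (95% interval -0.83 to -0.04, edgeR adjusted p = 0.18). SRC (0.11), PXN (-0.12) and LPXN (-0.07), a paxillin relative, had log2 fold changes nearer 0, and the sign of SRC turned without vector 2 (-0.01).

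CAV1, the main structural protein of caveolae, was the 1 gene that rose. CAV1 (ENSG00000105974, chromosome 7, 116524785 to 116561184, plus strand) was at 155 and 148 CPM in CYR61 libraries, against 115 and 107 CPM in vector libraries. The groups did not overlap, and the log2 fold change was 0.45 (standard error 0.11, adjusted p = 0.0444 by edgeR) or 1.36-fold higher in CYR61 cells. The call was lost without vector 1 (edgeR adjusted p = 0.184), vector 2 (0.297), CYR61 1 (0.156) or CYR61 2 (0.0583), and was held with the GC trend removed (0.00129).

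CAV2, which assembles with CAV1, was at 51.3 and 41.2 CPM in CYR61 libraries, against 38.4 and 39.05 CPM in vector libraries, and was not called (log2 fold change 0.26, edgeR adjusted p = 0.323). CAVIN1, the coat protein that shapes caveolae, was at 526 and 574 CPM in CYR61 libraries and 551 and 512 CPM in vector libraries, with overlap (log2 fold change 0.05, 95% interval -0.20 to 0.29). Per length of exon, CAVIN1 had the highest level of the 39 genes, at 143.7 ± 8.96 CPM per kb in CYR61 and 138.8 ± 7.18 in vector libraries (n = 2 each). With the longest transcript as length, ITGB1 came first instead, at 164.9 CPM per kb over the 4 libraries against 141.2 for CAVIN1.

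**Figure D3:**
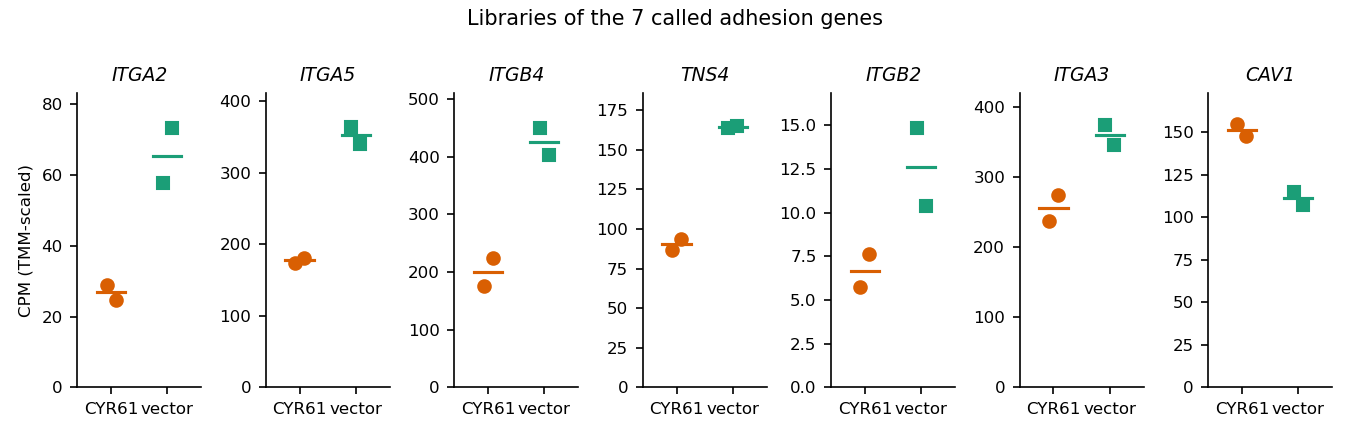
CPM of the 7 called genes in each CYR61 library (circles) and vector library (squares), with bars at the group means and each axis starting at 0. The groups do not overlap for any of the 7, and the 2 vector values of ITGB2 (14.9 and 10.4 CPM) are the widest apart relative to their mean.

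Of the 7 calls, 4 were held in each of the 14 alternative fits, namely ITGA2, ITGA5, ITGB4 and TNS4. Over those fits the log2 fold change ranged from -1.44 to -1.10 for ITGA2, -1.03 to -0.93 for ITGA5, -1.28 to -0.91 for ITGB4 and -0.92 to -0.78 for TNS4. With the GC trend removed the 7 kept their direction and call, and 11 further members passed the threshold, 6 lower (ITGAV, ITGB1, ITGB5, SDC4, LIMS1 and TNS2) and 5 higher (SDC1, FERMT1, TNS3, ZYX and BCAR1). The remaining 21 were called in neither fit. In the fit without the GC trend 13.2% of all genes were lower and 14.7% higher, against 30.8% and 15.4% of the members.

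**Figure D4:**
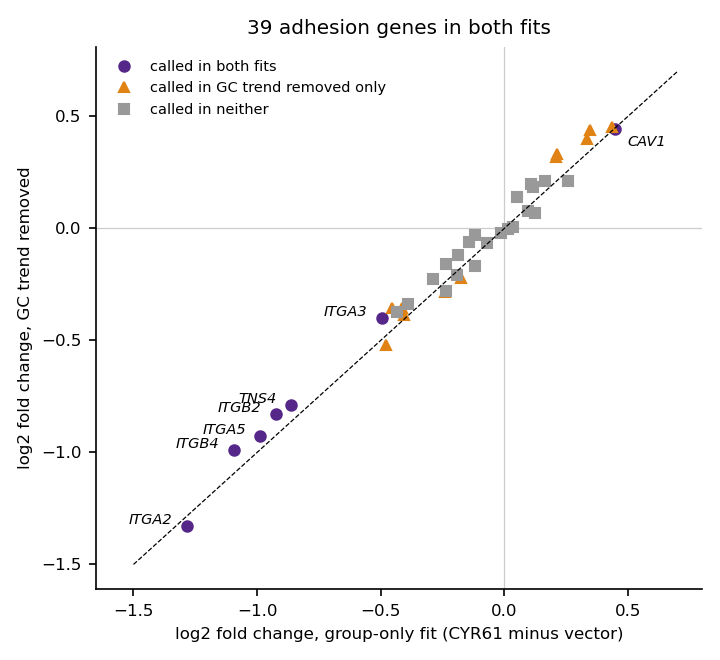
Log2 fold change (CYR61 minus vector) of the 39 genes in the fit on group alone (horizontal axis) and with the GC trend removed (vertical axis), with the dashed line of equality. Circles are the 7 genes called in both fits, triangles the 11 called with the GC trend removed only and squares the 21 called in neither, and the points lie along the line.

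Other genes of the adhesion pathway were read from 7 lists by role, with 142 of 169 genes tested. Of these 11 fell (7.75%, against 4.56% of all genes) and 1 rose (0.704%, against 1.83%), and the median of their log2 fold changes was -0.05. With the GC trend removed, 22 were lower (15.5%, against 13.2% of all genes) and 21 higher (14.8%, against 14.7%). Both shares were near those of all genes. The lists too were chosen with earlier results of these data known, so their shares are a description. Leaving out vector 1 gave 9 lower and 0 higher by edgeR, leaving out vector 2 gave 9 and 2, leaving out CYR61 1 gave 10 and 1, and leaving out CYR61 2 gave 12 and 4.

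Ligand genes held 5 of these calls among 20 tested, 4 lower and 1 higher, and 5 were lower and 1 higher with the GC trend removed. IGFBP1, which carries an integrin-binding motif, was at 16.1 and 17.8 CPM in CYR61 libraries, against 61.6 and 54.0 CPM in vector libraries (log2 fold change -1.77, edgeR adjusted p = 0.000176), and FN1 fell as given above. The laminin chain genes LAMB3 and LAMA5, whose products are ligands of ITGA3 and ITGA6 receptors, fell by 0.72 and 0.57 on the log2 scale (edgeR adjusted p = 0.00999 and 0.0422). NPNT (nephronectin), a ligand of integrins in basement membranes, was at 49.6 and 44.7 CPM in CYR61 libraries, against 26.8 and 29.2 CPM in vector libraries, and was the 1 gene that rose (log2 fold change 0.75, edgeR adjusted p = 0.0114). The NPNT call was lost without vector 1 (edgeR adjusted p = 0.0687), and that of LAMA5 without vector 1 (0.102) or CYR61 1 (0.267) and with RLE size factors.

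Among 30 other plaque genes tested, 4 fell and 0 rose by edgeR, with 5 lower and 1 higher at an unadjusted p below 0.05 and 5 lower and 0 higher by DESeq2. With the GC trend removed, edgeR called 8 of them lower (26.7%, against 13.2% of all genes) and 5 higher (16.7%, against 14.7%). FHL2, a LIM-only protein gene, was at 179 and 205 CPM in CYR61 libraries, against 337 and 298 CPM in vector libraries (log2 fold change -0.73, edgeR adjusted p = 0.00697). LIMS2, the relative of LIMS1, was at 26.3 and 31.9 CPM in CYR61 libraries, against 52.1 and 44.5 CPM in vector libraries (log2 fold change -0.73, edgeR adjusted p = 0.021). For both genes the groups did not overlap, and the call of LIMS2 was lost without vector 1 (edgeR adjusted p = 0.12) and without CYR61 1 (0.0646).

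Of 39 adhesion signalling genes 2 fell and 0 rose by edgeR in the fit on group alone. Removal of the GC trend gave 5 lower (12.8%, against 13.2% of all genes) and 6 higher (15.4%, against 14.7%). DESeq2 called 2 lower and 0 higher, and 4 were lower and 4 higher at an unadjusted p below 0.05 in edgeR. The fallen genes were the non-muscle myosin gene MYH10 (log2 fold change -0.97, edgeR adjusted p = 0.0114) and the SRC-family kinase gene FYN (-0.68, 0.012). The FYN call was lost without vector 2 (edgeR adjusted p = 0.0614). Of 19 activation and trafficking genes 1 fell in the fit on group alone. Removal of the GC trend gave 2 lower and 2 higher (10.5% each, against 13.2% and 14.7% of all genes). The fallen gene was SLC3A2, the CD98 heavy chain that binds beta integrin tails, at 309 and 351 CPM in CYR61 libraries, against 498 and 452 CPM in vector libraries (edgeR adjusted p = 0.0265). Leaving out vector 1 (edgeR adjusted p = 0.167) or CYR61 1 (0.178) ended this call.

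In 3 lists 0 genes were called by edgeR in the fit on group alone or by DESeq2. They were 22 genes of heparan sulfate synthesis and syndecan partners, 10 other caveolae genes and 2 other integrin subunits. DESeq2 gave an adjusted p to 20, 8 and 2 of these genes. At an unadjusted p below 0.05 in edgeR, 1 heparan sulfate gene was lower and 2 higher, 1 caveolae gene was lower and 0 integrin subunits were either. With the GC trend removed, edgeR called 1 heparan sulfate gene lower and 4 higher, 1 caveolae gene lower and 3 higher, and 0 integrin subunits. The heparan sulfate shares were 4.55% and 18.2% and the caveolae shares 10.0% and 30.0%, against 13.2% and 14.7% of all genes. The gene of smallest p was GPC2, a glypican, among the heparan sulfate genes (log2 fold change -0.77, edgeR adjusted p = 0.0753, and 0.0276 without CYR61 2). It was FLOT1, a flotillin, among the caveolae genes (-0.40, edgeR adjusted p = 0.087) and ITGA2B among the other integrin subunits (-0.54, edgeR adjusted p = 0.25).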

How the data were processed

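Gene-level estimated counts were deposited by the authors as 1 table per library. The build hg38 is named, with TopHat2 version 2.1.1, Cufflinks version 2.2.1 and Cuffdiff version 1.3.0, per the submitters' processing notes. Which program counted, with which annotation and strandedness, was not given in the sources used here. Between 11.2% and 12.0% of values were not whole, so estimated counts were rounded. Genes were filtered with filterByExpr (12698 tested), scaled by TMM and fitted with edgeR 4.0.16 in R 4.3.3 on group alone. Each SE is the log2 fold change over the square root of F. CPM and CPM per kb of exon (GENCODE release 29) describe levels. Symbols matched 20228 of 20286 identifiers. Alternatives were DESeq2 1.42.0, other scalings and filters, a replicate block, each library left out, and removal of each library's GC trend (spline, 5 degrees of freedom, genes of at least 5 CPM). Scripts were tested on simulated data. Values in every library are given for called members, members called only with the GC trend removed, CYR61 receptor subunits, syndecans and caveolae genes and the most abundant plaque gene per length. In each other list the called genes are named, except some that are counted but not reported by name here, or else the gene of smallest p. Members and lists were chosen with earlier results of these data known. Poisson intervals and limits for 0 counts cover counting error only.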

Additional observations from a re-analysis of the deposited data

How the results depend on the processing

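Under the 14 alternatives to the fit on group alone, the 39 members gave 544 values of the log2 fold change, of which 466 kept direction and side of the threshold. Another 47 gained a call, 13 lost it and 18 changed sign. Of the 47 gains, 19 came with the replicate numbers crossed, a pairing chosen after seeing the data. A further 11 came with the GC trend removed and 8 with the replicate block added to that. The sign changes were all in genes that were not called. They were VCL with DESeq2 (0.0043) and RLE size factors (0.0043) and PARVA with the GC trend removed (-0.0029, and -0.0026 with the replicate block added). With 1 library left out, where the lone library of a group is assumed to vary like the other group, the ranges were -0.085 to 0.17 for ITGA6, -0.26 to 0.049 for ITGB8, -0.081 to 0.31 for SDC2, -0.047 to 0.036 for VCL, -0.021 to 0.060 for PARVA, -0.026 to 0.35 for PARVB, -0.025 to 0.27 for FERMT2, -0.018 to 0.25 for TNS1, -0.19 to 0.034 for LPXN, -0.0074 to 0.24 for SRC and -0.014 to 0.12 for CAVIN1. Members called numbered 12 lower and 6 higher with the GC trend removed, and 0 higher with the replicate block. With 1 library left out 4 to 6 members were lower and 0 higher. Over all genes, 1029 were lower and 648 higher without a filter, 1675 and 1870 with the GC trend removed, and 356 higher with DESeq2. With 1 library left out 377 to 793 were lower and 104 to 538 higher. The other adhesion genes called were 22 lower and 21 higher with the GC trend removed, 5 higher without a filter, and 9 to 12 lower and 0 to 4 higher with 1 library left out. The cause of these shifts was not tested. The replicate numbers are not said to mark a shared day, and deviations of same-numbered libraries correlated at -0.38 over genes. With the replicate block 338 genes were lower and 53 higher, and 6 other adhesion genes were lower and 0 higher. The block ended the calls of ITGA3 (edgeR adjusted p = 0.253) and CAV1 (0.369), and those of NPNT, LAMA5, SLC3A2, LIMS2 and FYN among the others named. With the block and the GC trend removed 1011 genes were lower and 999 higher, and 9 members were lower and 6 higher. Of the other adhesion genes 14 were lower and 10 higher there. ITGAV (edgeR adjusted p = 0.102), ITGB1 and TNS2, lower with the GC trend removed alone, were not called in that fit. With the numbers crossed, a pairing chosen after seeing the data, 2876 genes were lower and 2748 higher, 19 members lower and 7 higher, and 41 other adhesion genes lower and 28 higher. The median level per length of the kept members was 10.1 CPM per kb of exon and 16.4 with the longest transcript as length. At mean CPM of at least 0.5 and 2, 40 and 38 members were kept. ITGB3, at 4 or 5 counts per library, was below the filter and was not tested.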
